A study of Homo sapiens with 22 samples.

Results

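NFE2L2, the gene of the transcription factor NRF2, was followed together with 8 genes of glutathione and antioxidant defence: GCLC, GCLM, NQO1, TXNRD1, SRXN1, HMOX1, GPX4 and GSR. They were taken as the rows of a table of expression values whose symbol is one of these names, and all 9 were found among its 17165 genes. The RNA came from PC9, a human lung cancer cell line that grows through an activated mutant of the receptor EGFR. Drug-treated cells of its derivatives PC9-GR2 and PC9-GR3, below GR2 and GR3, and of the WZ4002-tolerant population received the EGFR inhibitor WZ4002, gefitinib-tolerant cells received the EGFR inhibitor gefitinib, and parental cells received either; each population also had a vehicle group. The 11 groups held 2 libraries each, 22 in all, and treatment ran for 24 h at a dose labelled 1 mM, a unit that is in doubt for inhibitors of this kind. All groups share the PC9 background. The labels do not say whether a derivative was a single clone, how the tolerant cells had been selected or how long they had been without inhibitor before vehicle was given.

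NRF2 is held low in resting cells by KEAP1, which binds it and hands it to an ubiquitin ligase for breakdown. Oxidants and electrophiles modify KEAP1, and NRF2 then accumulates, pairs with small MAF proteins and binds antioxidant response elements beside its target genes. Because that control acts on the protein, the RNA level of NFE2L2 does not measure NRF2 activity. Among the targets, GCLC and GCLM are the catalytic and the modifier subunit of glutamate-cysteine ligase, the first enzyme of glutathione synthesis. GSR returns oxidised glutathione to its reduced form, and GPX4 spends glutathione to remove lipid peroxides and so guards the cell against ferroptosis. TXNRD1 reduces thioredoxin, SRXN1 repairs overoxidised peroxiredoxins, NQO1 reduces quinones, and HMOX1 breaks down heme and is also under the repressor BACH1.

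Values are CPM, in which the reads of a gene are scaled to the total of its library. That total was between 23.64 and 49.58 M reads, and the listed genes held 14.44 to 31.84 M of them, so that 1 read was worth 0.0202 to 0.0423 CPM. No pair of libraries was alike within counting noise, since the chi-square averaged over genes was 3.48 for the GR2 vehicle pair and 19.8 to 87.5 for the others. Whether the 2 libraries of a group come from different cultures is not labelled. The p-values and standard errors below reflect no more than the spread within pairs, pooled for each gene over the 11 groups, which may be technical. They do not measure the spread of the 2 pairs compared. Pairs differed in spread, with an SD of log2 of CPM + 1 of 0.1 in vehicle-treated GR2 cells and 0.325 in vehicle-treated GR3 and WZ4002-treated parental cells. Epithelial markers were present, with KRT7 at 699.69 to 2377.81 CPM and EPCAM at 106.92 to 409.22 CPM, whereas the lung markers NKX2-1, NAPSA and SFTPC stayed at or below 1.7 CPM and SFTPB ran from 0.06 to 28.64 CPM. The summed CPM of the 12 epithelial and lung markers was above vehicle in every drug-treated group, for instance 6773.61 to 7557.52 in WZ4002-treated GR2 cells against 3028.44 to 3155.7 in vehicle-treated GR2 cells, and its part in the results was not tested. Of 6 leukocyte markers only CD14 was in the table, at 0.1 to 7.22 CPM. Of 4 endothelial markers CDH5 ran from 1.91 to 37.23 CPM, VWF from 0.14 to 2.86 CPM and KDR from 0.02 to 0.24 CPM, and PECAM1 was absent. Of 6 fibroblast markers COL1A1 had 5.27 to 18.38 CPM, and COL1A2, LUM and PDGFRB stayed at or below 1.29 CPM. The fibroblast markers COL3A1 and DCN were absent. The columns of the table repeat the order of the groups, and a run was taken to end where that order starts again. The lone last column, replicate 2 of vehicle-treated GR2 cells, starts it again and was kept with the run before it by choice. Counted so, there are 3 runs, and both vehicle-treated GR2 libraries stand in the last run of 4. The labels do not say what a run is. The other libraries of that run are replicate 2 of WZ4002-treated parental cells and replicate 2 of WZ4002-treated WZ4002-tolerant cells.

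The start of a gene is where NRF2 sites are often found, and 7 of the 9 genes were searched in windows of 300 bases around their annotated starts, in sequences of RefSeq on GRCh38.p14. The core of the antioxidant response element, TGACNNNGC, was sought on both strands and occurred in 13.3% of 35116 such windows, and in at least 1 window of 16.1% of 27305 genes. Of the 7 genes, some of which have several windows, GCLM and TXNRD1 held it and the other 5 did not, and none of the 7 held the AP-1 site TGACTCA, which occurs in 4.95% of windows and can overlap the core. The windows of GCLM and TXNRD1 are shown because they hold the core, and that of SRXN1, which does not, because all 3 genes were higher in vehicle-treated GR2 cells and fell there with WZ4002. NFE2L2 took the same course, held no match in either of its windows and is not shown. Sites outside the windows were not searched. Letters run 5′ to 3′ along the gene, and capitals mark each match. The GCLM window is chr1:93909381-93909680 on the minus strand, with a match whose first base lies 34 bases before the start and which reads TGACTAAGC on the opposite strand. TXNRD1 has windows at chr12:104215529-104215828 and chr12:104286782-104287081 on the plus strand, with matches at 99 and 8 bases before the first start and at 102 bases before the second. The SRXN1 window, chr20:653151-653450 on the minus strand, holds no match, which says only that these letters are not in it.
GCLM: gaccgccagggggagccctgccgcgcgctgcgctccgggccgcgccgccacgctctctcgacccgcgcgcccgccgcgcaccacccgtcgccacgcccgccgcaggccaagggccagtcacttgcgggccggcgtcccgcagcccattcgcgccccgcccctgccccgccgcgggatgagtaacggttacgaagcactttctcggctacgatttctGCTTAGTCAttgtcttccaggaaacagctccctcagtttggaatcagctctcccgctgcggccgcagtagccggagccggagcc
TXNRD1 first start: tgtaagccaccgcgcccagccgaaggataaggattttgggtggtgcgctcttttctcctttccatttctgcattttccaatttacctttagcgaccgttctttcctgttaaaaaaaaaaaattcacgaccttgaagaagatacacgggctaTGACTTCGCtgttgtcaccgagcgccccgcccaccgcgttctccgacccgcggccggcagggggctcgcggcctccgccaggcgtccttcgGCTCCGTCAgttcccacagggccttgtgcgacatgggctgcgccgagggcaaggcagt
TXNRD1 second start: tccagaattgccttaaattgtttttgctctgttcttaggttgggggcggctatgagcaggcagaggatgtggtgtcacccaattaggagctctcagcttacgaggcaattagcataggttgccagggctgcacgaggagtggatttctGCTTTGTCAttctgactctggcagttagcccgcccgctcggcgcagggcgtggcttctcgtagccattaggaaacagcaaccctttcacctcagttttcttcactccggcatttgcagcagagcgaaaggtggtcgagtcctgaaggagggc
SRXN1: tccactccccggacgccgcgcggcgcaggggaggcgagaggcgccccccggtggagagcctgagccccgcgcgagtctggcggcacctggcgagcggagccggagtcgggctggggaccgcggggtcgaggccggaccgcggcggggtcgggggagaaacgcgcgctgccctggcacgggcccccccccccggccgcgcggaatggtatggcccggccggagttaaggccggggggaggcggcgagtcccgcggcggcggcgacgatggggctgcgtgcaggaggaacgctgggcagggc

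The 9 genes did not move as a block. Vehicle-treated GR2 cells held the highest mean of NFE2L2, GCLM, TXNRD1, SRXN1 and GSR among the 11 groups, and for these 5 genes both libraries of that group lay above every other library. GCLM, TXNRD1, SRXN1 and NFE2L2 were lower in WZ4002-treated than in vehicle-treated GR2 cells. The WZ4002-treated GR2 libraries share no run of columns with the vehicle-treated ones. Drug and run therefore cannot be told apart within GR2 cells, and this holds for each such comparison below. Nor can population and run be told apart where vehicle-treated GR2 cells are set against other vehicle-treated cells. In bulk RNA, fewer cells of a type and less RNA per cell cannot be told apart. HMOX1 and GPX4 followed another course and were higher under an inhibitor than under vehicle in all populations. NQO1 was lowest in the tolerant populations under vehicle, and GSR was lower than in parental vehicle in both of them and in GR3 cells.

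**Figure D1:**
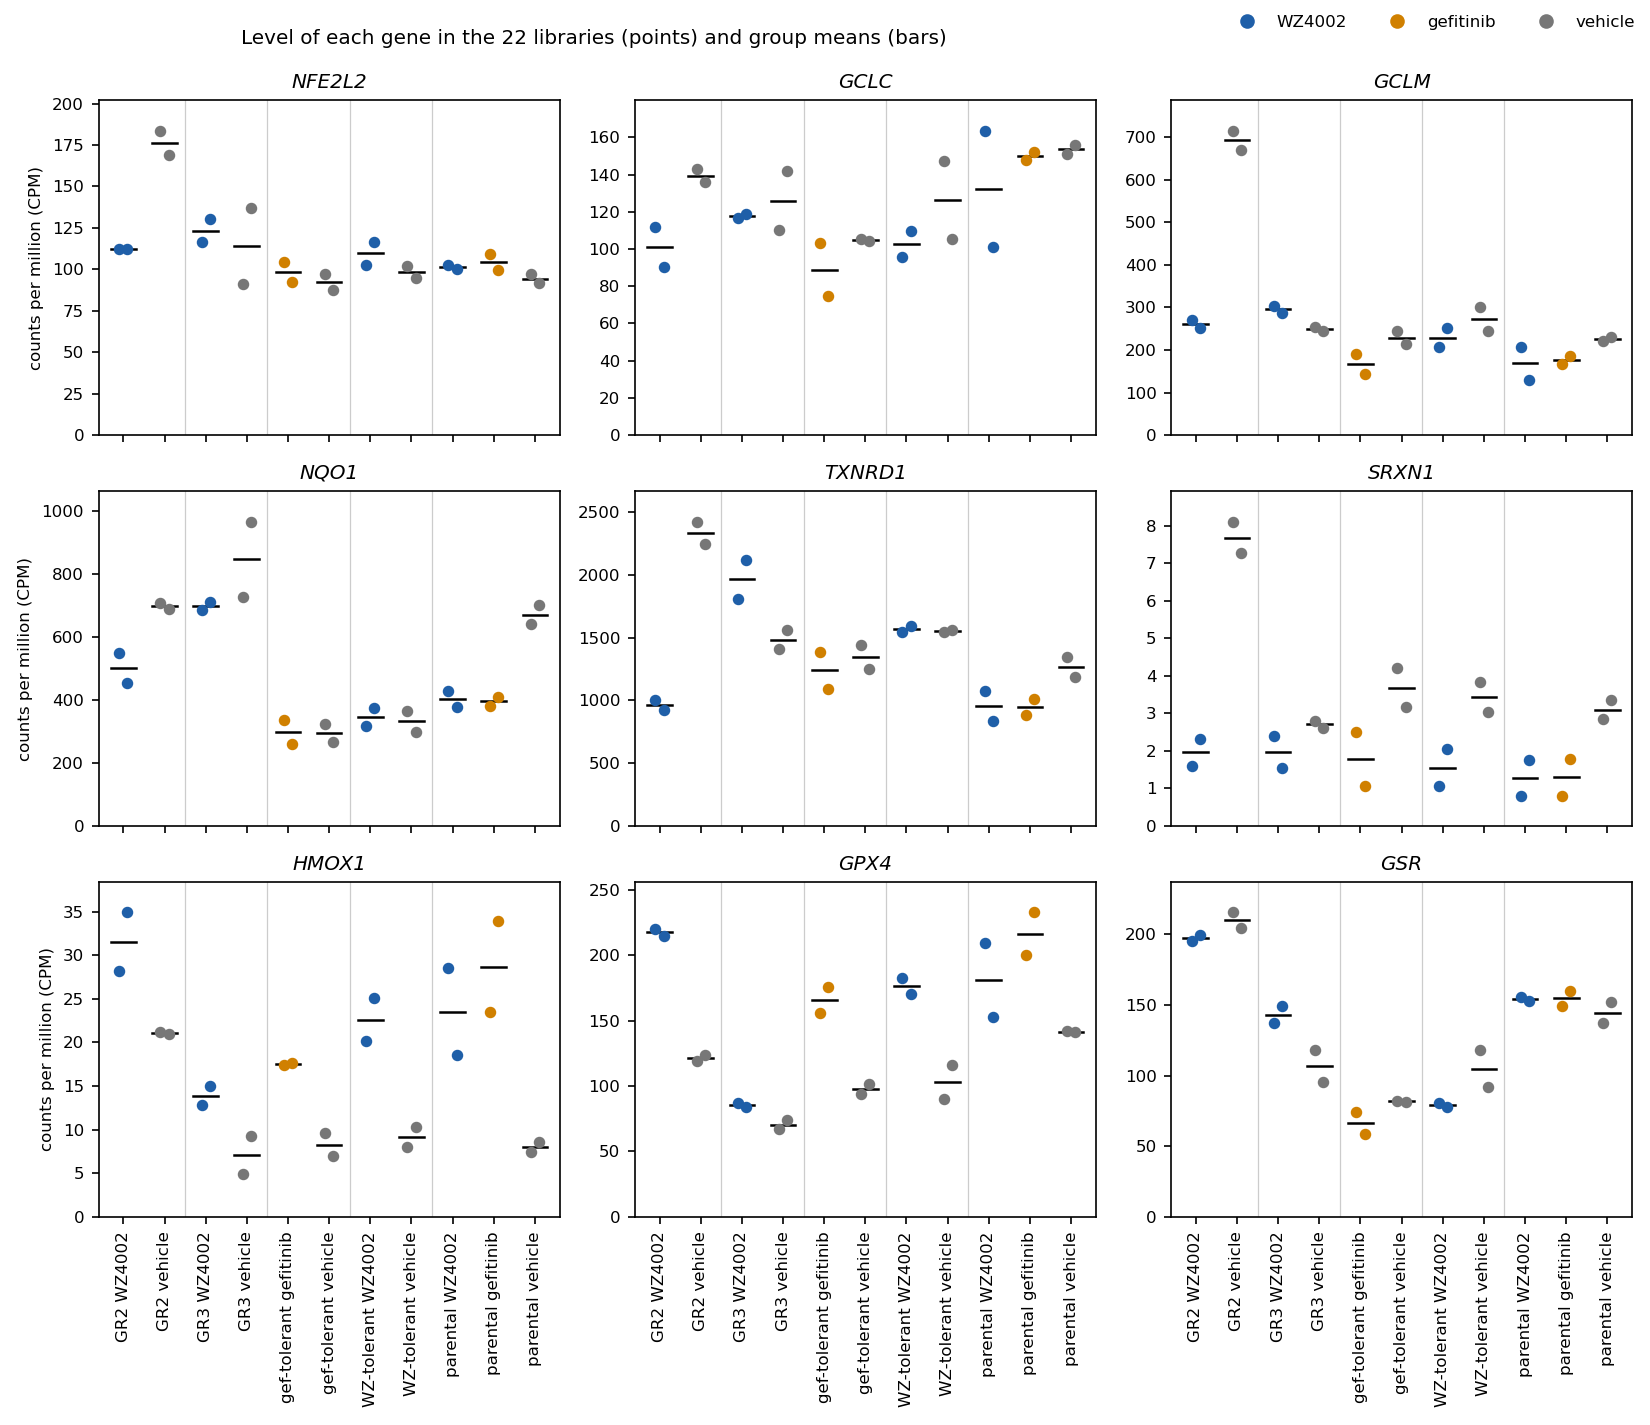
CPM of the 9 genes (vertical axes, linear from 0, with a scale for each gene) in the 22 libraries, as points, with group means as bars, in the 11 groups of population and treatment. Vehicle-treated GR2 cells stand above all other groups for GCLM, with 715.34 and 670.99 CPM, and for NFE2L2, TXNRD1 and SRXN1, while HMOX1 and GPX4 are higher under an inhibitor than under vehicle in each population.

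NFE2L2 was the steadiest gene of the group outside vehicle-treated GR2 cells. It stood at 183.61 and 169.18 CPM in vehicle-treated GR2 cells, against 96.9 and 91.69 CPM in vehicle-treated parental cells, and the groups did not overlap. The difference was 0.90 ± 0.15 (SE) on the scale of log2 of CPM + 1, used for all differences below, with an adjusted p of 0.000992. All adjusted p-values are those of limma, fitted to all 22 libraries, with Benjamini-Hochberg adjustment over 15485 genes and a threshold of 0.05. With WZ4002, NFE2L2 fell in GR2 cells to 112.53 and 112.25 CPM, by 0.64 ± 0.15 (adjusted p = 0.00189). In the other 5 pairs of inhibitor and vehicle its differences lay between 0.09 and 0.16, with adjusted p of 0.449 to 0.683. Over the other 10 groups the means ran without a break from 123.31 CPM in WZ4002-treated GR3 cells down to 92.265 CPM in vehicle-treated gefitinib-tolerant cells, and each overlapped its neighbour. Vehicle-treated GR3 cells were spread widely, at 90.95 and 136.74 CPM. Reads of AGPS, which overlaps NFE2L2 on the other strand, cannot be told apart here, since no source used here says how the counting treated strand. The same holds for antisense genes over GCLC and NQO1, and AC019080.1 and AL033397.1 overlap NFE2L2 and GCLC on their own strand.

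Of the partners and regulators of NRF2, 15 genes fixed as a list were all in the table. In vehicle-treated GR2 cells 4 of them were higher and 1 lower than in parental cells, where 8.98% of all genes tested were higher and 7.76% lower. The count of higher genes was 1 without replicate 1 of vehicle-treated GR2 cells or with a term for the runs of columns, and 2 without replicate 2 of either group. MAFG, a small MAF partner of NRF2, had 65.51 and 57.76 CPM in vehicle-treated GR2 cells, against 28.96 and 36.9 CPM in vehicle-treated parental cells (0.89 ± 0.16, adjusted p = 0.00171). SQSTM1, which can take KEAP1 to autophagy and is itself an NRF2 target, rose too (0.93 ± 0.20, adjusted p = 0.00507), a call that was lost without replicate 1 of vehicle-treated GR2 cells (0.90, adjusted p = 0.055). With WZ4002, 6 of the 15 fell and 1 rose in GR2 cells, where 28.3% of all genes fell and 27.4% rose. MAFG fell to 22.82 and 27.92 CPM (−1.25 ± 0.16, adjusted p = 1.17e-05). MAFF, another small MAF, and NFE2L3, a relative of NRF2, fell under an inhibitor in every population, and MAFF stood at 3.44 and 5.72 CPM in WZ4002-treated GR3 cells against 18.27 and 26.22 CPM in vehicle-treated GR3 cells. Both calls were lost in gefitinib-tolerant cells without replicate 1 of vehicle or replicate 2 of gefitinib (adjusted p of 0.053 to 0.088), and in WZ4002-tolerant cells without replicate 1 of vehicle or of WZ4002 (0.09 to 0.294), that of MAFF also without replicate 2 of vehicle (0.145).

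The subunits of glutamate-cysteine ligase parted ways. GCLM stood at 715.34 and 670.99 CPM in vehicle-treated GR2 cells, against 221.16 and 229.62 CPM in vehicle-treated parental cells. That is a 3.065-fold level on the scale of CPM + 1 (1.62 ± 0.19, adjusted p = 4.31e-05), held by a modifier subunit that lets the ligase work at the glutamate levels of the cell. GCLC, the catalytic subunit, stood at 142.74 and 135.89 CPM in vehicle-treated GR2 cells, against 151.16 and 156.06 CPM in vehicle-treated parental cells. GCLC passed the test in none of the 17 comparisons made, although the measured levels ran from 74.56 to 163.58 CPM over the libraries. The largest GCLC differences were −0.55 ± 0.21 for gefitinib-tolerant against parental cells under vehicle (adjusted p = 0.0826) and −0.46 ± 0.21 for WZ4002 in GR2 cells (adjusted p = 0.0716).

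WZ4002 brought GCLM in GR2 cells to 270.9 and 252.15 CPM, a fall by 1.40 ± 0.19 (adjusted p = 1.44e-05). These values overlap the range of the tolerant populations under vehicle and still lie above both vehicle-treated parental libraries. In GR3 cells GCLM had 304.01 and 287.94 CPM with WZ4002, against 253.81 and 244.02 CPM with vehicle, and the difference of 0.25 ± 0.19 did not pass (adjusted p = 0.36). In parental cells GCLM had 207.6 and 129.62 CPM with WZ4002 and 166.82 and 185.58 CPM with gefitinib, against 221.16 and 229.62 CPM with vehicle. All 4 inhibitor values were below both vehicle values, but neither difference passed (−0.46, adjusted p = 0.0537, and −0.36, adjusted p = 0.13). The tolerant populations gave −0.46 with gefitinib (adjusted p = 0.0748) and −0.25 with WZ4002 (adjusted p = 0.322).

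The RNA of the cystine importer moved over a wider range than that of the ligase subunits. SLC7A11, the cystine importer and a target of both NRF2 and ATF4, had 814.62 and 702.53 CPM in vehicle-treated GR2 cells, against 191.7 and 202.78 CPM in vehicle-treated parental cells. The difference of 1.94 ± 0.43 had an adjusted p of 0.00621, and the call was lost without replicate 1 of vehicle-treated GR2 cells (1.83, adjusted p = 0.067). WZ4002 left 27.57 and 21.18 CPM of SLC7A11 in GR2 cells, far below vehicle (−4.91 ± 0.43, adjusted p = 2.27e-07). It fell as well in WZ4002-treated GR3 cells, to 39.65 and 27.27 CPM against 94.99 and 176.53 CPM with vehicle, a call lost without replicate 2 of WZ4002-treated GR3 cells (−1.68, adjusted p = 0.052). In parental cells both inhibitors lowered it (−2.40 with gefitinib, adjusted p = 0.000399, and −2.82 with WZ4002, adjusted p = 0.000102). SLC3A2, the partner chain of the importer, fell with SLC7A11 in WZ4002-treated GR2 cells, to 69.45 and 68.16 CPM against 490.61 and 464.08 CPM with vehicle.

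Within the list of 18 genes of glutathione supply and recycling, WZ4002 lowered 10 and raised 3 in GR2 cells, where 28.3% of all genes fell and 27.4% rose. Under vehicle 5 were higher and 1 lower in GR2 than in parental cells (8.98% and 7.76% of all genes), but only 1 was higher without replicate 1 of GR2, 2 without replicate 2 of GR2 or with a term for the runs of columns, and 3 without either parental library. IDH2, a mitochondrial source of NADPH, was among those that WZ4002 raised, with 177.82 and 183.6 CPM in WZ4002-treated GR2 cells against 45.87 and 49.87 CPM in vehicle-treated GR2 cells. CHAC1, which degrades glutathione and is a target of ATF4, fell in parental cells to 0.25 and 0.84 CPM with gefitinib and to 0.92 and 0.66 CPM with WZ4002, against 14.41 and 8.73 CPM with vehicle. Both tolerant populations already had low CHAC1 under vehicle, at 1.49 and 1.45 CPM in gefitinib-tolerant and 0.94 and 1.54 CPM in WZ4002-tolerant cells. Their IDH1 and IDH2 were below parental cells too, with IDH1 at 34.09 and 60.56 CPM in gefitinib-tolerant and 60.61 and 48.46 CPM in WZ4002-tolerant cells against 224.23 and 308.08 CPM in parental cells.

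TXNRD1 shared the course of GCLM in GR2 cells. It stood at 2424.02 and 2242.49 CPM in vehicle-treated GR2 cells, against 1342.67 and 1186.4 CPM in vehicle-treated parental cells (0.88 ± 0.16, adjusted p = 0.00171). WZ4002 lowered it in GR2 cells to 1004.25 and 921.68 CPM, by 1.28 ± 0.16 (adjusted p = 9.25e-06). GR3 cells had 1810.83 and 2116.71 CPM of TXNRD1 with WZ4002, against 1407.97 and 1557.77 CPM with vehicle. Both WZ4002 values lay above both vehicle values, but the difference of 0.40 ± 0.16 did not pass (adjusted p = 0.084). In parental cells TXNRD1 fell with either inhibitor, to 882.4 and 1013.81 CPM with gefitinib (−0.42 ± 0.16, adjusted p = 0.0451) and to 1074.35 and 836.45 CPM with WZ4002 (−0.41 ± 0.16, adjusted p = 0.0449). Both parental calls were near the threshold. They were lost without filtering low genes (adjusted p = 0.0946 with gefitinib and 0.0932 with WZ4002) and without most single libraries, as given below. The tolerant populations held their TXNRD1, with 1382.92 and 1094.06 CPM with gefitinib against 1439.69 and 1253.62 CPM with vehicle in one, and 1543.27 and 1592.77 CPM with WZ4002 against 1541.89 and 1557.17 CPM with vehicle in the other.

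SRXN1 was the scarcest of the 9, with 0.8 to 8.11 CPM, which is 19 to 402 reads. It had 8.11 and 7.26 CPM in vehicle-treated GR2 cells, against 2.85 and 3.35 CPM in vehicle-treated parental cells (1.08 ± 0.29, adjusted p = 0.018). WZ4002 brought it in GR2 cells to 1.6 and 2.32 CPM (−1.56 ± 0.29, adjusted p = 0.0003). In each of the 6 pairs of inhibitor and vehicle both drug-treated libraries lay below both vehicle libraries. The fall passed in parental cells with gefitinib (−0.87, adjusted p = 0.0224) and with WZ4002 (−0.88, adjusted p = 0.0205) and in WZ4002-tolerant cells (−0.82, adjusted p = 0.0397). It did not pass in gefitinib-tolerant cells (−0.79, adjusted p = 0.0503) or in GR3 cells (−0.33, adjusted p = 0.44). SRXN1 shares exons with AL121758.1 on the same strand in GENCODE, so its counts are uncertain.

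NQO1 differed between populations and, in parental and GR2 cells, between treatments. The tolerant cells had the lowest levels, with 324.59 and 265.95 CPM in vehicle-treated gefitinib-tolerant cells and 365.64 and 297.91 CPM in vehicle-treated WZ4002-tolerant cells, against 639.0 and 699.9 CPM in vehicle-treated parental cells. Both falls passed, by 1.18 ± 0.17 (adjusted p = 0.000259) and 1.02 ± 0.17 (adjusted p = 0.000897). In parental cells the inhibitors lowered NQO1 to 381.5 and 408.19 CPM with gefitinib (−0.76, adjusted p = 0.00222) and to 427.02 and 378.26 CPM with WZ4002 (−0.73, adjusted p = 0.00266). In the tolerant populations drug and vehicle libraries overlapped, at 335.72 and 258.85 CPM with gefitinib and 316.27 and 372.93 CPM with WZ4002. The difference between the tolerant and the parental response was 0.76 ± 0.24 for gefitinib (adjusted p = 0.122) and 0.79 ± 0.24 for WZ4002 (adjusted p = 0.0733), so neither passed. GR2 cells had 549.68 and 454.67 CPM with WZ4002 against 705.66 and 688.12 CPM with vehicle (−0.48, adjusted p = 0.0264). GR3 cells had 684.99 and 711.18 CPM with WZ4002 against 726.17 and 964.95 CPM with vehicle (−0.26, adjusted p = 0.29).

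GSR was lower under vehicle in 3 of the 4 derivatives than in parental cells. It had 82.05 and 81.46 CPM in vehicle-treated gefitinib-tolerant cells, 117.73 and 91.77 CPM in vehicle-treated WZ4002-tolerant cells and 117.77 and 95.62 CPM in vehicle-treated GR3 cells, all below the 137.03 and 151.67 CPM of vehicle-treated parental cells. The falls were 0.81 ± 0.14 (adjusted p = 0.000797), 0.47 ± 0.14 (adjusted p = 0.0253) and 0.44 ± 0.14 (adjusted p = 0.031), in that order. GR2 cells stood on the other side, with 215.31 and 204.21 CPM under vehicle (0.54 ± 0.14, adjusted p = 0.0137) and 195.17 and 199.61 CPM under WZ4002. WZ4002 raised GSR in GR3 cells, to 136.83 and 149.41 CPM (0.43 ± 0.14, adjusted p = 0.0346), and lowered it in WZ4002-tolerant cells, to 80.9 and 77.73 CPM (−0.39 ± 0.14, adjusted p = 0.0401).

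HMOX1 was higher with inhibitor than with vehicle in every population, with no overlap of libraries in any. In parental cells it had 23.44 and 33.88 CPM with gefitinib and 28.5 and 18.54 CPM with WZ4002, against 7.48 and 8.59 CPM with vehicle. Those are rises by 1.70 ± 0.26 (adjusted p = 0.000109) and 1.41 ± 0.26 (adjusted p = 0.000414). WZ4002-tolerant cells had 20.11 and 25.11 CPM with WZ4002 against 7.99 and 10.25 CPM with vehicle (1.22, adjusted p = 0.00277), and gefitinib-tolerant cells 17.39 and 17.62 CPM with gefitinib against 9.56 and 6.98 CPM with vehicle (1.01, adjusted p = 0.00926). GR3 cells had 12.78 and 15.01 CPM with WZ4002 against 4.97 and 9.27 CPM with vehicle (0.92, adjusted p = 0.0179). GR2 cells differed in their starting level, with 21.24 and 20.92 CPM under vehicle, above parental vehicle by 1.29 ± 0.26 (adjusted p = 0.00309). With WZ4002 they had 28.21 and 34.89 CPM, and the difference of 0.55 ± 0.26 did not pass (adjusted p = 0.0779). The GR2 response was not shown to differ from the parental one (−0.86 ± 0.36, adjusted p = 0.174).

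GPX4 rose with inhibitor in 4 of the 6 pairs. The widest difference was in GR2 cells, with 219.94 and 214.88 CPM with WZ4002 against 118.76 and 124.01 CPM with vehicle (0.84 ± 0.15, adjusted p = 0.000185). WZ4002-tolerant cells had 182.35 and 170.39 CPM with WZ4002 against 90.18 and 116.26 CPM with vehicle (0.78, adjusted p = 0.00144), gefitinib-tolerant cells 156.01 and 175.32 CPM with gefitinib against 93.95 and 101.81 CPM with vehicle (0.75, adjusted p = 0.00213). Parental cells had 199.78 and 232.57 CPM with gefitinib (0.60, adjusted p = 0.00353) and 209.47 and 152.56 CPM with WZ4002 (0.33, adjusted p = 0.0698), against 142.04 and 141.09 CPM with vehicle. GR3 cells had the lowest GPX4 of all groups, with 87.17 and 84.21 CPM with WZ4002 and 66.96 and 74.0 CPM with vehicle. Their rise did not pass (0.28, adjusted p = 0.181), whereas vehicle-treated GR3 cells lay below vehicle-treated parental cells at 0.501-fold their level (−0.998 ± 0.15, adjusted p = 0.000187).

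**Figure D2:**
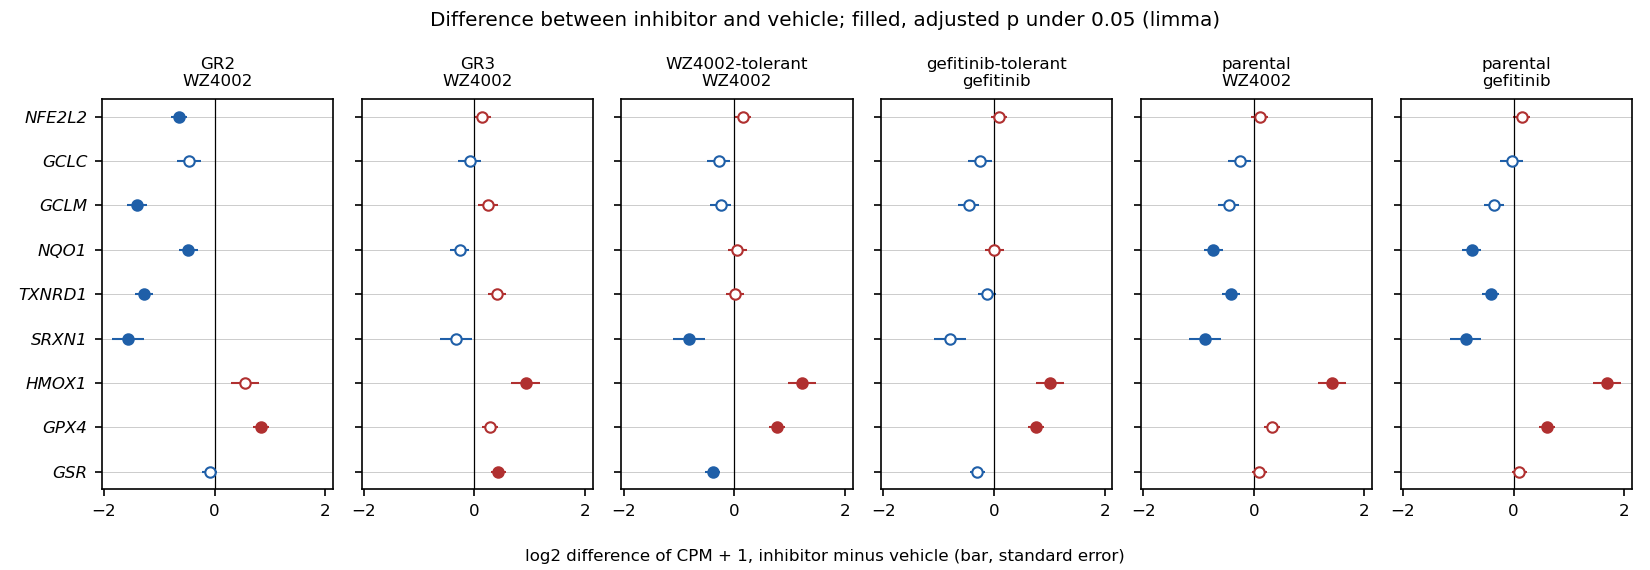
Log2 differences between inhibitor and vehicle (horizontal axis, log2 of CPM + 1, bars showing the standard error) for the 9 genes in 6 pairs of groups, with filled points for an adjusted p under 0.05, red above 0 and blue below. HMOX1 and GPX4 lie to the right of 0 in all 6 panels, and GCLM (−1.40), TXNRD1 (−1.28) and SRXN1 (−1.56) lie furthest to the left in GR2 cells.

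The first set of comparisons asked what 24 h of inhibitor did in each population. In parental cells 5 of the 9 genes were called with gefitinib, where 45.3% of all genes tested were. Of them 2 were higher with gefitinib, where 23.5% were, and 3 were lower, where 21.8% were. The 2 higher genes were HMOX1 and GPX4 and the 3 lower were NQO1, TXNRD1 and SRXN1. With WZ4002 4 of the 9 were called (background 47.5%). HMOX1 was higher (background 25.1%), and the same 3 genes, NQO1, TXNRD1 and SRXN1, were lower (background 22.3%). The median difference over the 9 genes was −0.03 with gefitinib and −0.25 with WZ4002, and over all genes 0.042 and 0.043. The shares of the 9 are near those of all genes. Leaving out either vehicle library took away the SRXN1 and TXNRD1 calls with both inhibitors (adjusted p of 0.0557 to 0.233). The TXNRD1 call was also lost without either gefitinib library (0.0588 to 0.24) and without replicate 2 of WZ4002 (−0.23, adjusted p = 0.341) and, for WZ4002, with a term for the runs of columns (−0.32, adjusted p = 0.166), and the SRXN1 call without replicate 1 of gefitinib (−0.55, adjusted p = 0.223) and without replicate 1 of WZ4002 (−0.57, adjusted p = 0.186). HMOX1 and NQO1 passed with each library left out.

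Gefitinib, a reversible inhibitor, and WZ4002, which binds EGFR covalently, were compared in parental cells, where dose and time carry the same labels. None of the 9 genes differed between them at an adjusted p under 0.05, nor did any other gene tested, a background of 0.00%, although 525 genes had an unadjusted p under 0.05. The 9 pairs gave differences of WZ4002 minus gefitinib from −0.28 for HMOX1 (95% interval −0.83 to 0.26) to 0.03 for NQO1 (−0.34 to 0.39). The interval was −0.58 to 0.04 for GPX4 and −0.62 to 0.60 for SRXN1, so differences within those bounds cannot be told from 0. Without replicate 1 of WZ4002, 343 of all genes passed, but 0 of the 9, and limma-voom on the recovered reads called 0 genes, with 532 at an unadjusted p under 0.05. All 9 adjusted p-values were 0.999, and the intervals do not show that the inhibitors act alike.

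In GR2 cells WZ4002 changed 6 of the 9 genes, against 55.7% of all genes. It lowered 5, where 28.3% of all genes fell, and raised 1, where 27.4% rose. The 5 were GCLM, TXNRD1, SRXN1, NFE2L2 and NQO1, and the gene that rose was GPX4. The median over the 9 genes was −0.48, and over all genes 0.008. The NQO1 call was lost without any 1 of 3 libraries, either vehicle library or replicate 2 of WZ4002 (−0.50 to −0.34, adjusted p of 0.0795 to 0.199), and with a term for the runs of columns (−0.48, adjusted p = 0.128). The calls of GCLM, TXNRD1, SRXN1, NFE2L2 and GPX4 held with each library left out and with that term. Both vehicle libraries stand in the last run, and the term cannot tell them from it, as set out below.

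In GR3 cells WZ4002 raised 2 of the 9 genes, HMOX1 and GSR, against a background of 12.1%, and lowered none, against 9.87%. The median over the 9 was 0.25, and over all genes 0.019. Both calls were lost when certain single libraries were left out, which leaves 1 library in that group. Without replicate 2 of WZ4002 neither passed (0.815 for HMOX1, adjusted p = 0.114, and 0.36 for GSR, adjusted p = 0.184). The HMOX1 call was also lost without replicate 1 of vehicle (0.53, adjusted p = 0.215), and the GSR call without replicate 2 of vehicle (0.28, adjusted p = 0.203), without replicate 1 of WZ4002 (0.49, adjusted p = 0.0616) and with median-of-ratios scaling (0.405, adjusted p = 0.051).

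In gefitinib-tolerant cells gefitinib changed 2 of the 9 genes, against 28.7% of all genes. It raised HMOX1 and GPX4, against 15.2%, and lowered none, against 13.6%. The HMOX1 call was lost without replicate 2 of vehicle (0.81, adjusted p = 0.0683) and without replicate 2 of gefitinib (1.00, adjusted p = 0.0761). Without replicate 1 of gefitinib, 5 of the 9 passed. In WZ4002-tolerant cells 4 of the 9 changed, against 32.6%. WZ4002 raised HMOX1 and GPX4, 2 of 9 against 17.0%, and lowered GSR and SRXN1, 2 of 9 against 15.6%. The SRXN1 call was lost without either vehicle library or replicate 1 of WZ4002 (−0.95 to −0.54, adjusted p of 0.0631 to 0.279), with a pseudocount of 0.1 (adjusted p = 0.0564) and with no filter (0.0504). The GSR call was lost with a term for the runs of columns (−0.33, adjusted p = 0.124) and without replicate 1 of vehicle (−0.21, adjusted p = 0.392) or either WZ4002 library (−0.415 and −0.36, adjusted p = 0.0982 and 0.14).

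The second set compared the populations under vehicle. All 4 derivatives were set against the same parental libraries, so these comparisons share their controls. In GR2 cells 6 of the 9 genes differed from parental cells, against 16.7% of all genes. All 6 were higher, where 8.98% of all genes were, and 0 were lower, where 7.76% were. They were GCLM, HMOX1, SRXN1, NFE2L2, TXNRD1 and GSR, and GPX4 was not called (−0.22 ± 0.15, adjusted p = 0.328). The median over the 9 genes was 0.88, and over all genes 0.021. GCLM, HMOX1, NFE2L2 and TXNRD1 passed with each library left out and with a term for the runs of columns, which gave 1.88 for GCLM, 1.06 for TXNRD1 and 0.82 for NFE2L2. For the last run that term rests only on the WZ4002-treated parental and WZ4002-tolerant pairs, which are split between runs. From the earlier to the last run GCLM went from 207.6 to 129.62 CPM in the parental and from 207.89 to 250.78 CPM in the WZ4002-tolerant pair. Passing with the term therefore cannot tell vehicle-treated GR2 cells from their run. The SRXN1 call was lost without any 1 of the 4 libraries (1.00 to 1.17, adjusted p of 0.0643 to 0.13), with a pseudocount of 0.1 (1.285, adjusted p = 0.0571) and with that term (0.53, adjusted p = 0.39). The GSR call was lost without replicate 1 of parental vehicle (0.465, adjusted p = 0.101), without either GR2 library (0.50 and 0.575, adjusted p = 0.118 and 0.0614) and with that term (0.62, adjusted p = 0.0576). Within the last run of columns GCLM was at 715.34 and 670.99 CPM in vehicle-treated GR2 cells, against 129.62 CPM in the parental and 250.78 CPM in the WZ4002-tolerant library with WZ4002. Those libraries differ from GR2 vehicle in treatment as well as in population.

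In GR3 cells 2 of the 9 differed from parental cells (background 20.8%). None was higher (background 9.77%) and 2, GPX4 and GSR, were lower (background 11.1%). The GSR call was lost without either parental library or without replicate 2 of GR3 (−0.51 to −0.29, adjusted p of 0.064 to 0.235). The tolerant populations each had 3 of the 9 lower and 0 higher than parental cells, and the 3 were NQO1, GSR and GPX4 in both. The background was 19.0% for gefitinib-tolerant and 18.4% for WZ4002-tolerant cells, made up of 9.64% lower and 9.39% higher for gefitinib-tolerant cells, and 9.73% lower and 8.72% higher for WZ4002-tolerant cells. GPX4 fell by 0.53 ± 0.15 in gefitinib-tolerant cells (adjusted p = 0.019) and by 0.46 ± 0.15 in WZ4002-tolerant cells (adjusted p = 0.0365). These GPX4 calls were lost without either parental library or without replicate 1 of the tolerant population (−0.53 to −0.28, adjusted p of 0.0827 to 0.318). The GSR call in WZ4002-tolerant cells was lost without either parental library or replicate 2 of the tolerant cells (−0.54 to −0.29, adjusted p of 0.0592 to 0.252). The NQO1 falls passed with each library left out, as did that of GSR in gefitinib-tolerant cells.

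GR3 and GR2 cells were also set against each other under vehicle, and 7 of the 9 genes differed, against 33.1% of all genes. All 7 were lower in GR3, where 17.5% of all genes were, and 0 were higher, where 15.6% were. GCLM had 253.81 and 244.02 CPM in GR3 cells against 715.34 and 670.99 CPM in GR2 cells (−1.47 ± 0.19, adjusted p = 2.27e-05), and HMOX1 had 4.97 and 9.27 CPM in GR3 cells against 21.24 and 20.92 CPM in GR2 cells (−1.50 ± 0.26, adjusted p = 0.000356). SRXN1 (−1.23), GSR (−0.98), GPX4 (−0.78), NFE2L2 (−0.66) and TXNRD1 (−0.65) were the other 5. GCLC and NQO1 did not pass. The TXNRD1 call was lost without replicate 1 of GR2 vehicle (−0.60, adjusted p = 0.0549), and with a term for the runs of columns NFE2L2 (−0.575, adjusted p = 0.0695) and SRXN1 (−0.68, adjusted p = 0.195) no longer passed.

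**Figure D3:**
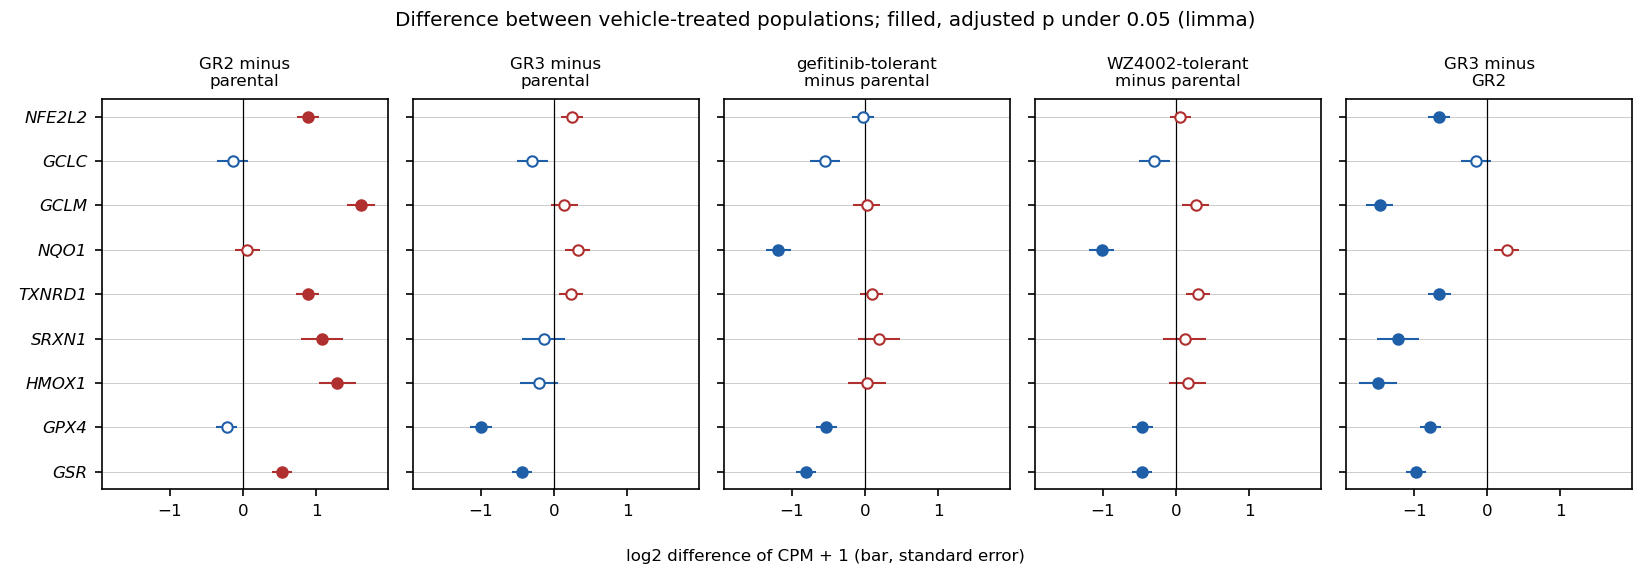
Log2 differences between vehicle-treated populations (horizontal axis, log2 of CPM + 1, bars showing the standard error) for the 9 genes, with filled points for an adjusted p under 0.05, red above 0 and blue below. In GR2 minus parental 6 genes lie to the right as filled points, in GR3 minus GR2 7 lie to the left, and in both tolerant populations NQO1 lies furthest to the left (−1.18 and −1.02).

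The third set asked whether the response to an inhibitor differed between populations, as a difference of differences. The response to WZ4002 was higher in GR3 than in GR2 cells for GCLM (1.65 ± 0.26, adjusted p = 0.000779), TXNRD1 (1.68 ± 0.23, adjusted p = 0.000251) and NFE2L2 (0.79 ± 0.21, adjusted p = 0.0226), which are 3 of 9 against a background of 13.6%, of which 6.78% were higher and 6.80% lower. GCLM and TXNRD1 passed with each library left out and with a term for the runs of columns, with the limit of that term given above. NFE2L2 was lost without either GR2 vehicle library, either GR2 WZ4002 library, replicate 1 of GR3 vehicle or replicate 2 of GR3 WZ4002 (0.49 to 0.845, adjusted p of 0.0505 to 0.0955) and with that term (0.71, adjusted p = 0.0977). SRXN1 gave 1.23 ± 0.41 and GSR 0.51 ± 0.19, which did not pass (adjusted p = 0.0571 and 0.0896).

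The response was lower in GR2 than in parental cells for TXNRD1 (−0.86 ± 0.23, adjusted p = 0.0328), GCLM (−0.95 ± 0.26, adjusted p = 0.0405) and NFE2L2 (−0.75 ± 0.21, adjusted p = 0.0438), 3 of 9 against 6.79% of all genes, of which 3.45% were lower and 3.34% higher. These 3 calls were close to the threshold. NFE2L2 was lost without any 1 of the 8 libraries (−0.81 to −0.69, adjusted p of 0.0771 to 0.176). GCLM and TXNRD1 were lost without each except replicate 2 of parental WZ4002 (−0.999 to −0.61 and −0.95 to −0.68, adjusted p of 0.0535 to 0.155). With a term for the runs of columns 0 of the 9 passed, and with no filter on low genes 1 did, NFE2L2. SRXN1 (−0.69 ± 0.41, adjusted p = 0.354) was not called and took the other sign with that term (0.12). Between GR3 and parental cells 0 of 9 differed (background 1.29%, with 0.633% higher and 0.659% lower), with TXNRD1 at 0.815 ± 0.23 (adjusted p = 0.0845) and GCLM at 0.70 ± 0.26 (adjusted p = 0.192). Without replicate 1 of parental WZ4002, 2 passed. Neither tolerant population differed from parental cells in its response for any of the 9 (background 1.07% higher and 0.936% lower with gefitinib, and 4.49% with WZ4002, 2.10% higher and 2.40% lower).

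Other NRF2 targets, 27 genes fixed as a list, were all tested, and their course can be set beside that of the 9. WZ4002 lowered 12 and raised 4 of them in GR2 cells (median −0.35), where 28.3% of all genes fell and 27.4% rose. It raised 10 and lowered 2 in GR3 cells (median 0.51), where 12.1% of all genes rose and 9.87% fell. ABCC1, an exporter of glutathione conjugates, had 47.41 and 54.25 CPM in WZ4002-treated GR2 cells against 180.46 and 169.0 CPM in vehicle-treated GR2 cells (−1.76 ± 0.18, adjusted p = 9.94e-07), and OSGIN1, an oxidative stress response gene, had 8.8 and 8.06 CPM against 27.19 and 24.36 CPM (−1.505 ± 0.21, adjusted p = 2.44e-05). In GR3 cells the aldo-keto reductase AKR1C3 had 167.9 and 167.78 CPM with WZ4002 against 83.97 and 109.22 CPM with vehicle (0.80 ± 0.16, adjusted p = 0.00243), and transketolase, TKT, rose by 0.73 ± 0.13 (adjusted p = 0.000964). ABCC1 fell also in parental (−1.17 with gefitinib, −1.18 with WZ4002), gefitinib-tolerant (−0.52) and WZ4002-tolerant cells (−0.72), but was not called in GR3 cells (−0.07). TKT rose also in GR2 (0.465) and parental cells (0.64 with gefitinib, 0.69 with WZ4002). In gefitinib-tolerant (0.23) and WZ4002-tolerant cells (0.19) TKT was not called. FTH1 and BLVRB rose in GR3 cells (0.81 and 0.64). They also rose in gefitinib-tolerant (0.84 and 0.59) and WZ4002-tolerant cells (0.79 and 0.74), whereas AKR1C3 was not called there (0.25 and 0.43). Rises within the list were thus not confined to GR3 cells. The response was higher in GR3 than in GR2 cells for 11 of the 27 and lower for 0, against 6.78% and 6.80% of all genes. That count of 11 was 4 without replicate 2 of GR3 WZ4002, 5 and 6 without replicates 1 and 2 of GR2 vehicle, 6 without replicate 2 of GR2 WZ4002 and 7 without replicate 2 of GR3 vehicle. The 10 rises in GR3 cells became 5 without replicate 1 of vehicle and 4 without replicate 2 of WZ4002, the 2 falls became 0 without replicate 2 of vehicle and 1 without either WZ4002 library, and the 4 rises in GR2 cells became 2 without replicate 2 of WZ4002.

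Under vehicle the list gave 4 higher and 1 lower in GR2 than in parental cells (median 0.27), against 8.98% and 7.76% of all genes. AKR1C1 had 466.14 and 451.52 CPM in vehicle-treated GR2 cells against 92.16 and 153.41 CPM in vehicle-treated parental cells (1.94 ± 0.37, adjusted p = 0.00236), OSGIN1 27.19 and 24.36 CPM against 9.84 and 9.63 CPM (1.32 ± 0.21, adjusted p = 0.000727). With a term for the runs of columns 6 were higher and 0 lower, and the lower call was lost without replicate 2 of parental vehicle or either GR2 library. The tolerant populations gave 0 higher in both, with 16 lower in gefitinib-tolerant cells (median −0.67) and 10 lower in WZ4002-tolerant cells (median −0.63). Of all genes 9.64% were lower and 9.39% higher in gefitinib-tolerant cells, and 9.73% lower and 8.72% higher in WZ4002-tolerant cells. AKR1B10, an aldo-keto reductase, had 69.16 and 83.31 CPM in vehicle-treated gefitinib-tolerant cells and 230.81 and 106.71 CPM in vehicle-treated WZ4002-tolerant cells, against 584.52 and 823.53 CPM in vehicle-treated parental cells. TKT and PGD, enzymes of the pentose phosphate pathway, fell in both, TKT to 336.67 and 336.58 CPM and to 378.09 and 344.11 CPM against 673.5 and 687.05 CPM in parental cells. The 16 became 7 without replicate 2 of parental vehicle and 6 without replicate 1 of gefitinib-tolerant vehicle, and the 10 became 5 without replicate 2 of parental vehicle or of WZ4002-tolerant vehicle. GR3 cells had 7 lower and 1 higher than parental cells, against 11.1% and 9.77% of all genes (4 lower without replicate 2 of parental vehicle or replicate 1 of GR3 vehicle).

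**Figure D4:**
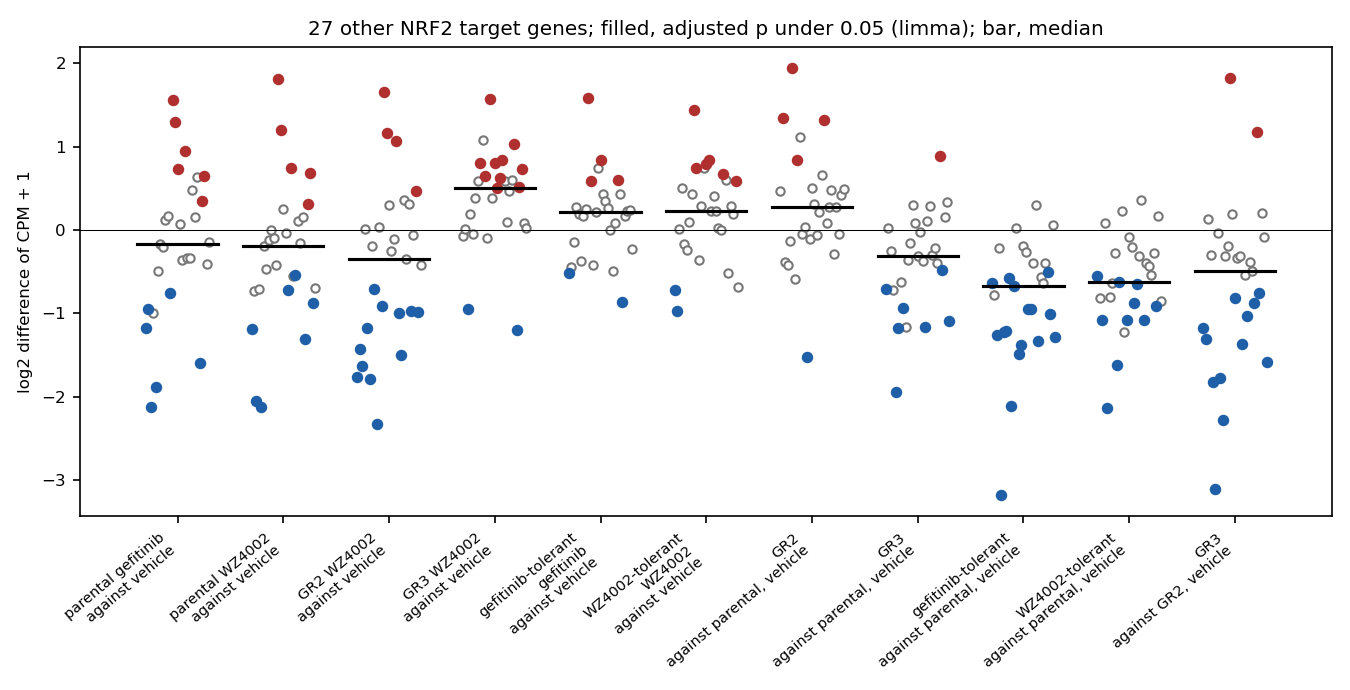
Log2 differences (vertical axis, log2 of CPM + 1) of 27 other NRF2 target genes in the 6 comparisons of inhibitor with vehicle and the 5 comparisons of vehicle-treated populations, with filled points for an adjusted p under 0.05 (red above 0, blue below) and bars at the median. The median is below 0 for WZ4002 in GR2 cells (−0.35), above 0 in GR3 cells (0.51), and at −0.67 and −0.63 in the vehicle-treated tolerant populations against parental cells.

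Across the 11 group means the 9 genes did not form one set, and they did not split into clear sets either. NFE2L2, GCLM, TXNRD1 and SRXN1 correlated with each other, and so did HMOX1 and GPX4. Pearson's r of log2 levels was 0.87 for NFE2L2 with GCLM, 0.84 for GCLM with SRXN1, 0.79 for GCLM with TXNRD1 and 0.82 for HMOX1 with GPX4, while GPX4 with TXNRD1 gave −0.65. Among NFE2L2, GCLM, TXNRD1 and SRXN1 it ran from 0.54 to 0.87. Pairs that cut across these 4 genes reached that range too, with 0.56 for NFE2L2 with GSR and 0.55 for NFE2L2 with NQO1. So did pairs outside them, with 0.59 for NQO1 with GSR and 0.6 for GCLC with GSR. These values describe 11 means that share libraries and treatments. The GR2 vehicle mean stands apart for NFE2L2, GCLM, TXNRD1 and SRXN1. Among 10625 genes with a symbol and a mean of at least 5 CPM, those most like GCLM were CYP4F11 (r = 0.931), OSGIN1 (0.913) and COL8A1 (0.907), and those most like NFE2L2 were COP1 (0.946), DPF2 (0.938) and again COL8A1 (0.93). TXNRD1 was most like PRDX1P1 (0.983), a pseudogene copy of PRDX1 whose reads may come from its parent, and HMOX1 was most like COMMD7 (0.975). GPX4 was most like PUS10 (0.977), NQO1 like ADIPOR2 (0.952), SRXN1 like DHX29 (0.982), GSR like POLR1D (0.966) and GCLC like CTDNEP1P1 (0.921).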

How the data were processed

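RNA-seq libraries were made from polyA-selected RNA with a directional kit, per the labels' protocols. The submitters' processing notes name STAR, HTSeq and the build hg19; versions and the strand setting of the counting are not given in the sources used here. The deposited table holds CPM, rounded by the authors to 2 decimals, for 17165 genes, of which 16779 IDs had a symbol; 0 columns belonged to other samples. CPM scales to the library total, so a large change in a few genes shifts all others.

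The steps of 1 read in the CPM values gave library totals of 23.64 to 49.58 M reads. At least 99.983% of values were whole reads on that scale, against 24.1 to 50.6% by chance.

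The members and gene lists were chosen with earlier results of these data known. Genes at 1 CPM or more in at least 2 libraries were tested (15485, with 1680 left out) with limma 3.58.1 in R 4.3.3, with trend, on log2(CPM + 1), over 11 group means and 17 contrasts. The pseudocount of 1 understates changes of low genes such as SRXN1. Residual degrees of freedom were 11. In simulated data, GR2 against parental vehicle with 15485 genes and 200 changed, 68% of 2-fold and 95% of 4-fold changes were recovered, and 6.32% of calls were wrong. The simulated noise was independent between libraries, with 1 spread per gene for all groups. The real pairs differed in spread, so these shares need not hold for the data. From each list, up to 3 genes past the test with the lowest p were named in each contrast, and the 3 genes most like each member by Pearson's r. Each result was recomputed with a replicate block, with median-of-ratios scaling, without the filter, with 0.1 in place of 1 as pseudocount, without each library in turn and, chosen after seeing the data, a term for the runs of columns and limma-voom on recovered reads. The promoter of GSR was not used here.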

Additional observations from a re-analysis of the deposited data

Results flagged for a closer look

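Responses to WZ4002 differed between populations for 3 of the 9 genes, by the test of the difference itself, in each of 2 comparisons. Against parental cells the response of GR2 cells was lower for GCLM (−0.95), NFE2L2 (−0.75) and TXNRD1 (−0.86), where 6.79% of all genes differed. With a term for the runs of columns 0 of these 3 calls held, and each was lost in at least 7 of the 8 fits that left out 1 library. Against GR2 cells the response of GR3 cells was higher for GCLM (1.65), NFE2L2 (0.79) and TXNRD1 (1.68), where 13.6% of all genes differed. With that term GCLM and TXNRD1 still passed and NFE2L2 did not (adjusted p = 0.0977). GCLM and TXNRD1 also passed with each library left out, and NFE2L2 was lost in 6 of these 8 fits. Both sets use the same GR2 libraries, whose vehicle pair stands in the last run of columns. The part of that run in the differences was not tested beyond the fit with a term for it, which cannot tell that pair from its run.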

How the results depend on the processing

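Of 50 calls of the 9 genes over the 17 comparisons, 0 changed sign under any alternative run, 29 were kept with each library left out in turn and 21 were lost without at least 1. A pseudocount of 0.1 lost 2 calls and gained 0, no filter lost 5 and gained 0, median-of-ratios scaling lost 1 and gained 2, limma-voom on recovered reads lost 0 and gained 1, and the term for the runs of columns lost 11 and gained 3. The replicate numbers come from no label of pairing, and deviations of same-numbered libraries correlated from −0.262 to 0.633. Where same-numbered libraries of both groups stood in the same run of columns, the correlation was 0.134 to 0.633. Elsewhere it was −0.262 to −0.00203. These correlations reuse the same libraries and are no test of an effect of the runs, for which the main fit has no term. With the replicate block 0 calls were lost and 1 was gained, GCLM with WZ4002 in parental cells (−0.46, adjusted p = 0.04). The number of the 9 called became 1 with median-of-ratios scaling for WZ4002 in GR3 cells, and 1 with no filter and 0 with the term for the runs of columns for the response of GR2 minus parental cells. With single libraries left out it ranged from 3 to 4 for gefitinib and 2 to 5 for WZ4002 in parental cells, 0 to 2 in GR3 cells, 1 to 5 in gefitinib-tolerant and 2 to 3 in WZ4002-tolerant cells, from 1 to 3 for GR3 and 1 to 2 for WZ4002-tolerant against parental cells, and from 0 to 2 for the responses of GR2 and of GR3 minus parental cells. Values that took the other sign were all of uncalled genes. For WZ4002 against gefitinib these were GCLM (0.058) and GSR (0.054) with the term for the runs of columns and GSR with median-of-ratios scaling (0.002), and for the response of GR2 minus parental cells SRXN1 with that term (0.12). With single libraries left out, WZ4002 against gefitinib ranged from −0.11 to 0.032 for NFE2L2, −0.56 to 0.125 for GCLC, −0.44 to 0.24 for GCLM, −0.061 to 0.11 for NQO1, −0.18 to 0.18 for TXNRD1, −0.32 to 0.31 for SRXN1, −0.58 to 0.015 for HMOX1 and −0.052 to 0.043 for GSR. GCLC ranged from −0.60 to 0.09 for WZ4002 in parental and −0.26 to 0.10 in GR3 cells, and NFE2L2 from −0.15 to 0.43 for WZ4002 in GR3 cells and −0.051 to 0.53 for GR3 against parental cells. The causes were not tested. The planned edgeR fit was not run, because the recovered reads did not meet the criterion set for that test; limma-voom was run on them in its place. Depth limits SRXN1 most, at 19 to 402 reads a library.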

Other observations

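Of 19 glutathione peroxidases and transferases listed, 16 were tested, and GSTK1, a mitochondrial and peroxisomal glutathione transferase, was higher with inhibitor in all 6 comparisons with vehicle. It had 295.03 and 302.43 CPM in WZ4002-treated GR2 cells against 47.22 and 55.95 CPM in vehicle-treated GR2 cells (2.52 ± 0.22, adjusted p = 2.21e-07). Parental cells had 327.18 and 327.8 CPM with gefitinib and 323.77 and 339.33 CPM with WZ4002, against 98.43 and 124.31 CPM with vehicle. These 6 rises passed with each library left out. MGST2, a microsomal transferase, rose in WZ4002-treated GR2 cells as well, to 18.06 and 17.71 CPM against 8.11 and 9.3 CPM with vehicle (0.96 ± 0.14, adjusted p = 4.74e-05).

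Counts over this list depended on single libraries. In WZ4002-tolerant cells 10 of the 16 rose with WZ4002 and 0 fell, where 17.0% of all genes rose and 15.6% fell, but 3 rose without replicate 1 of vehicle and 6 without either WZ4002 library. In GR2 cells 5 rose and 4 fell with WZ4002. That comparison called 55.7% of all genes, with 27.4% higher and 28.3% lower. Among 13 tested ferroptosis genes 5 rose and 3 fell in WZ4002-treated GR2 cells, and of 15 genes of the thioredoxin system 3 rose and 5 fell, both near that share.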
